A study of Mus musculus with 9 samples.

Results

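Transcripts of 9 genes that mark astrocytes and myelin were followed in mouse brain microglia that had been sorted on CD45, P2ry12 and CD11b. The genes were chosen by name, 4 for astrocytes (Aqp4, Gfap, Slc1a2 and Slc1a3) and 5 for myelin (Mbp, Mog, Mobp, Cnp and Mag), out of 23238 gene symbols in the count tables, and each of the 9 occupied a single entry. There were 9 libraries in 3 groups of 3, each from a pool of 3 mice. All mice were wild-type adult C57BL/6N females, and the sampling time in the labels was 1 day for each group. Normal mice were untreated. NMO mice received NMO-IgG, patient antibody that recognises aquaporin-4, with human complement by injection into the striatum of 1 hemisphere. NMO+Clodronate mice received the same injection and, some hours earlier, clodronate liposomes into the peritoneum, which remove circulating monocytes and macrophages. The paper lists only Normal, NMO and NMO+Clodronate as groups of its microglial RNA sequencing, and none given control antibody, complement alone or empty liposomes. In the comparisons with Normal the effects of antibody, of complement and of the injection itself therefore cannot be told apart, and neither can clodronate and its liposomes.

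Aquaporin-4 is the water channel of astrocyte endfeet and the antigen of the antibody in neuromyelitis optica (NMO), in which antibody and complement destroy astrocytes and myelin is lost afterwards. Astrocytes clear glutamate from the synapse with the transporters encoded by Slc1a2 (GLT-1) and Slc1a3 (GLAST), and Gfap encodes their intermediate filament. Oligodendrocytes wrap axons in myelin, whose compact layers are held together by myelin basic protein (Mbp) and also contain the Mobp protein, while Mog lies on the outer surface, Cnp encodes an enzyme of the non-compact layers and Mag encodes an adhesion molecule that faces the axon. Microglia take up debris of both cell types, and transcripts of these genes in a microglial sort could come from the microglia or from material of other cells; the source was not tested.

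The 9 libraries held 5788234 to 7837219 counts, and the ribosomal RNA entry Rn45s took 16.0% to 31.0% of them. The sort was checked by 10 microglial genes, among them Cx3cr1 and Csf1r, which all had counts in every library and summed to 21450 to 40170 CPM (counts scaled to library size). P2ry12, the receptor used for sorting, was itself lower in NMO+Clodronate (353 ± 92.1 CPM, mean ± SD, n = 3) than in NMO (1648 ± 100.2 CPM; edgeR adjusted p = 1.73e-05). Normal replicate 1 stood apart in neuronal transcripts. The 15 neuronal genes summed to 266 CPM in it and to 10.3 to 66.3 CPM in the other libraries, and Meg3 alone had 1065 counts there and 31 to 123 counts elsewhere. Results of Slc1a2, Mbp and Meg3 are therefore also given without it.

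The 9 genes together held 772 to 1826 counts per library, which was 0.0110% to 0.0316% of all counts. Slc1a3, Cnp and Mag made up 85.5% to 97.6% of these counts in each library. Since the 3′ end of each transcript was read, transcript length does not enter the counts, and levels of different genes are compared here on the CPM scale. Over all 9 libraries Slc1a3 had 126 ± 43.6 CPM, Cnp 37.3 ± 16.5 CPM, Mag 36.1 ± 13.8 CPM, Aqp4 7.07 ± 4.67 CPM, Slc1a2 3.78 ± 6.30 CPM and Mbp 3.33 ± 6.11 CPM (mean ± SD, n = 9). Slc1a3 stood above the rest, as its lowest library (66.8 CPM) exceeded the highest value of any other member (62.4 CPM, Mag). Over all 9 libraries Cnp and Mag did not differ beyond their spread, and neither did Aqp4, Slc1a2 and Mbp. In NMO and in NMO+Clodronate each Aqp4 value was above each Slc1a2 value. Gfap, Mobp and Mog were at or near 0, with means of 0.227, 0.106 and 0.0313 CPM.

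**Figure D1:**
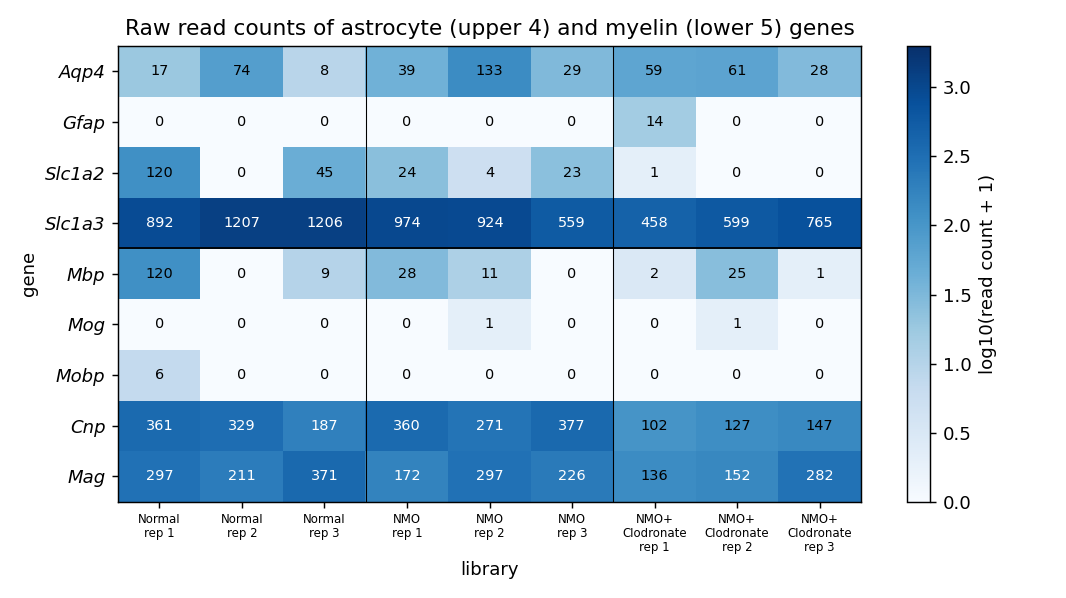
Raw read counts of the 9 genes (rows) in the 9 libraries (columns), with the count printed in each cell and the shade giving log10(count + 1). Slc1a3, Cnp and Mag had over 100 counts in each library, while Gfap, Mog and Mobp were at 0 in 8, 7 and 8 of the 9 libraries.

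The members thus differed in kind. Aqp4, Slc1a3, Cnp and Mag had counts in each of the 9 libraries, whereas Slc1a2 had counts in 6 and Mbp in 7. Gfap had 14 counts in NMO+Clodronate replicate 1 and 0 in the other 8 libraries. Mog had 1 count in NMO replicate 2 and 1 in NMO+Clodronate replicate 2, and Mobp had 6 counts, all in Normal replicate 1. A count of 0 allows up to 3 counts, which was 0.359 to 0.505 CPM in these libraries, so a level of Gfap, Mog or Mobp below that was not detectable at this depth. Gfap lies on chromosome 11 (102887336 to 102900912, minus strand), Mog on chromosome 17 (37010743 to 37023398, minus strand) and Mobp on chromosome 9 (120149707 to 120181484, plus strand), where 79 bases of its exons overlap Gm38642 on the same strand. These 3 genes did not pass the filter on low counts, and the tests below cover the other 6 members.

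For the promoters, 7 of the 9 members had a window of 300 bases in the RefSeq table (250 before to 50 after the start, build GRCm38.p6). Shown are those of Slc1a3 and Cnp, which were present in each library and called in a comparison below, and of Gfap, which was all but absent. Capitals mark the letters GAGGAA, the purine-rich core bound by PU.1, a transcription factor of microglia, or TTCCTC where the match is on the other strand. The windows are chr15:8710758-8711057 (minus strand), chr11:100574689-100574988 (plus strand) and chr11:102897151-102897450 (minus strand).
Slc1a3: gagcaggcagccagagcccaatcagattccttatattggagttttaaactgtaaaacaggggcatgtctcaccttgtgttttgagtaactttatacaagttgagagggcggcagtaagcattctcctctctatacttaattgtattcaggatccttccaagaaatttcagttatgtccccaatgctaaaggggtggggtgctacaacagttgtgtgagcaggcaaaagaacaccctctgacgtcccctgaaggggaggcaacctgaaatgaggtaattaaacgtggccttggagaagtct
Cnp: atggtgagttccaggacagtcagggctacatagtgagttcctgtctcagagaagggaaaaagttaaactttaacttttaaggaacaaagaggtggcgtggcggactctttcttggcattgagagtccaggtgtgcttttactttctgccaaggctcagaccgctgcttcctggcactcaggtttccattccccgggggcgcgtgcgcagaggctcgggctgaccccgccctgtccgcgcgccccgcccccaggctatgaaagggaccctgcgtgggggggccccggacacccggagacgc
Gfap: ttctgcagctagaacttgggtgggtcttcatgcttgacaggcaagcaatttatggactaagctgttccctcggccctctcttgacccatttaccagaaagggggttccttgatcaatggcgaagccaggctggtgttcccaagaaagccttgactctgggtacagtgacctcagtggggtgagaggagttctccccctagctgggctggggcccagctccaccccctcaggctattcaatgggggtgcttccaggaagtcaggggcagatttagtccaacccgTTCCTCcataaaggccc
The motif was searched on both strands, and 28.3% of 32851 windows of this length held it. Among the members it was found in the windows of Gfap, Mag, Mobp and Mog and not in those of Slc1a3, Cnp and Slc1a2. The 7 members had 9 windows, more than 1 of them for Mag, whereas the 28.3% is a share of windows. The windows of Gfap and Slc1a2 (chr2:102706188-102706487) lie inside the gene spans given in this report, away from the annotated gene start. The motif was chosen after the levels were seen, and a match is a description of letters only.

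Slc1a3 had the most counts of the 4 astrocyte members. Its gene lies on chromosome 15 (8634124 to 8710764, minus strand, mm10), and no exon of another annotated gene overlaps it. Normal libraries had 142, 182 and 203 CPM, NMO libraries 123, 111 and 89.5 CPM, and NMO+Clodronate libraries 66.8, 97.0 and 123 CPM (replicates 1 to 3). Each of the 6 libraries from injected mice was below each Normal library, and the NMO and NMO+Clodronate libraries overlapped. Slc1a3 was lower in NMO+Clodronate than in Normal by 0.88 on the log2 scale (edgeR log2 fold change -0.88, standard error 0.240, adjusted p = 0.0270, lower in 3 of 3 libraries). In NMO against Normal the log2 fold change was -0.71 (standard error 0.239), with an adjusted p of 0.279 that did not pass the threshold. Between NMO+Clodronate and NMO it was -0.17 (adjusted p = 0.853). The call against Normal was lost in 5 of 16 alternatives, namely with library totals alone (adjusted p = 0.0539) and without Normal replicate 2 (0.0907), Normal replicate 3 (0.132), NMO+Clodronate replicate 1 (0.106) or NMO+Clodronate replicate 2 (0.0841).

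Slc1a2, the other glutamate transporter, was far scarcer and uneven between replicates. It lies on chromosome 2 (102658659 to 102790784, plus strand), and 189 bases of its exons overlap Gm13872 on the other strand. Normal replicates 1 to 3 had 120, 0 and 45 counts, NMO replicates 24, 4 and 23 counts, and NMO+Clodronate replicates 1, 0 and 0 counts. Each NMO library was above each NMO+Clodronate library, but Normal replicate 2, at 0, was not. The fit called Slc1a2 lower in NMO+Clodronate than in Normal (adjusted p = 0.0298) but not in NMO+Clodronate against NMO (adjusted p = 0.219) or in NMO against Normal (log2 fold change -1.89, standard error 1.43, adjusted p = 0.778). The last of these was -0.66 without Normal replicate 1 and -0.26 with limma-voom. Slc1a2 passed the filter on low counts only through Normal and NMO libraries in which it was high. With only the 2 groups compared in the fit, it did not pass and had no value in either comparison with NMO+Clodronate. In NMO against Normal that fit gave -1.90 (adjusted p = 0.667). With 1 count in all NMO+Clodronate libraries the size of the fold is poorly set. The summed counts were 165 in Normal and 1 in NMO+Clodronate, a ratio of 169 after scaling (exact 95% interval 29.8 to 6698, which covers counting error only). Without Normal replicate 1 they were 45 and 1, a ratio of 68.9 (11.75 to 2781, added after seeing the data). Of the 120 counts in Normal replicate 1, the library with the most neuronal counts, the part of other cells was not tested; without that library the call was lost, 1 of 5 losses among the 15 alternatives that gave a value (adjusted p = 0.196), as it was without Normal replicate 3 (0.0744), NMO+Clodronate replicate 2 (0.0980) or NMO+Clodronate replicate 3 (0.0671) and with limma-voom (0.337).

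Aqp4, the gene of the antibody's target, was present in each library at a low and scattered level. It lies on chromosome 18 (15389496 to 15410982, minus strand), and none of its exons overlaps another gene. Normal replicates had 17, 74 and 8 counts (2.71, 11.1 and 1.35 CPM), NMO replicates 39, 133 and 29 counts (4.90, 15.9 and 4.64 CPM), and NMO+Clodronate replicates 59, 61 and 28 counts (8.61, 9.88 and 4.48 CPM). The 3 groups overlapped, and the highest libraries were NMO replicate 2 and Normal replicate 2. The log2 fold change was 0.74 (standard error 0.824, adjusted p = 0.901) in NMO against Normal, -0.15 (0.816, adjusted p = 0.976) in NMO+Clodronate against NMO and 0.59 (0.825, adjusted p = 0.777) in NMO+Clodronate against Normal. None of these was called in any of 16 alternatives. Without NMO replicate 2 the first turned to -0.09 and the second to 0.68, and without Normal replicate 2 the first was 2.06 and the last 1.91. At this spread between replicates, a p that misses the threshold does not show that the levels were equal.

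**Figure D2:**
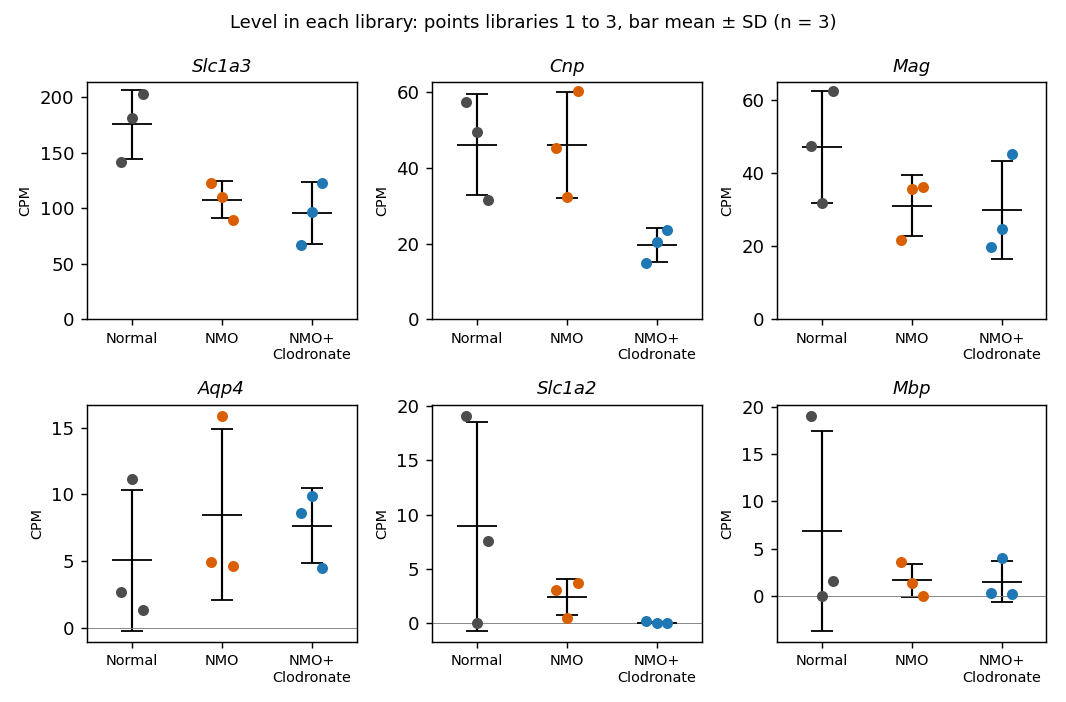
CPM of the 6 tested members in each library of Normal, NMO and NMO+Clodronate (points, replicates 1 to 3 from left to right), with mean ± SD (n = 3) as black bars. Slc1a3 was highest in the 3 Normal libraries and Cnp lowest in the 3 NMO+Clodronate libraries, whereas the groups overlapped in Mag, Aqp4 and Mbp.

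Cnp, which encodes the myelin enzyme 2′,3′-cyclic nucleotide phosphodiesterase and is not restricted to oligodendrocytes, was with Mag the most counted of the 5 myelin members. Cnp had the higher mean over all libraries, but in Normal and NMO+Clodronate the mean of Mag was higher. It lies on chromosome 11 (100574904 to 100591729, plus strand), and 154 bases of its exons overlap Dnajc7 on the other strand. Normal libraries had 57.5, 49.5 and 31.5 CPM, NMO libraries 45.3, 32.4 and 60.4 CPM, and NMO+Clodronate libraries 14.9, 20.6 and 23.5 CPM. The NMO+Clodronate libraries were below the 6 others, and the Normal and NMO libraries overlapped. Cnp was lower in NMO+Clodronate than in Normal by 1.23 on the log2 scale (log2 fold change -1.23, standard error 0.333, edgeR adjusted p = 0.0258, lower in 3 of 3 libraries). Against NMO the change was of like size but did not pass the threshold (log2 fold change -1.23, standard error 0.333, adjusted p = 0.0817), except without the filter on low counts (0.0162) and with DESeq2 (0.0359). NMO and Normal had mean levels within their spread of each other (46.0 ± 14.0 and 46.2 ± 13.4 CPM), and the fitted log2 fold change between them was -0.01 (standard error 0.325, adjusted p = 0.998). The call against Normal was lost without Normal replicate 1 (adjusted p = 0.130), Normal replicate 2 (0.0897), NMO+Clodronate replicate 1 (0.0882) or NMO+Clodronate replicate 2 (0.0735). Dnajc7 measured 188 ± 29.8 CPM in Normal, 166 ± 71.1 in NMO and 134 ± 70.2 in NMO+Clodronate and was not called (-0.49 in NMO+Clodronate against Normal, adjusted p = 0.438). Whether counting used strand is not given in the sources used here, so the share of Dnajc7 reads in the Cnp counts was not tested.

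Mag lies on chromosome 7 (30899176 to 30914873, minus strand) and overlaps no other exon. Its counts ran from 136 to 371 in all 9 libraries. Normal libraries had 47.3, 31.7 and 62.4 CPM, NMO libraries 21.6, 35.6 and 36.2 CPM, and NMO+Clodronate libraries 19.8, 24.6 and 45.2 CPM, so the groups overlapped. For Mag, NMO against Normal gave a log2 fold change of -0.60 (standard error 0.362, adjusted p = 0.670), NMO+Clodronate against NMO -0.06 (0.363, adjusted p = 0.981) and NMO+Clodronate against Normal -0.66 (0.363, adjusted p = 0.316). None was called in any of 16 alternatives.

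Mbp is among the most abundant transcripts of oligodendrocytes, and here it had fewer counts than Mag. Mbp lies on chromosome 18 (82475146 to 82585637, plus strand). Normal replicates had 120, 0 and 9 counts, NMO replicates 28, 11 and 0 counts, and NMO+Clodronate replicates 2, 25 and 1 counts. The groups overlapped, and Normal replicate 1 alone held more Mbp counts than the other 8 libraries together. Mag exceeded Mbp in each library, and over the 5 libraries with more than 3 Mbp counts the ratio of their counts ran from 2.48 in Normal replicate 1 to 41.2 in Normal replicate 3. The log2 fold changes of Mbp were -2.07 in NMO against Normal (standard error 1.75, adjusted p = 0.827), -0.12 in NMO+Clodronate against NMO (1.71, adjusted p = 0.994) and -2.19 in NMO+Clodronate against Normal (1.77, adjusted p = 0.556). Without Normal replicate 1 the first and the last turned to 1.08 and 0.98.

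**Figure D3:**
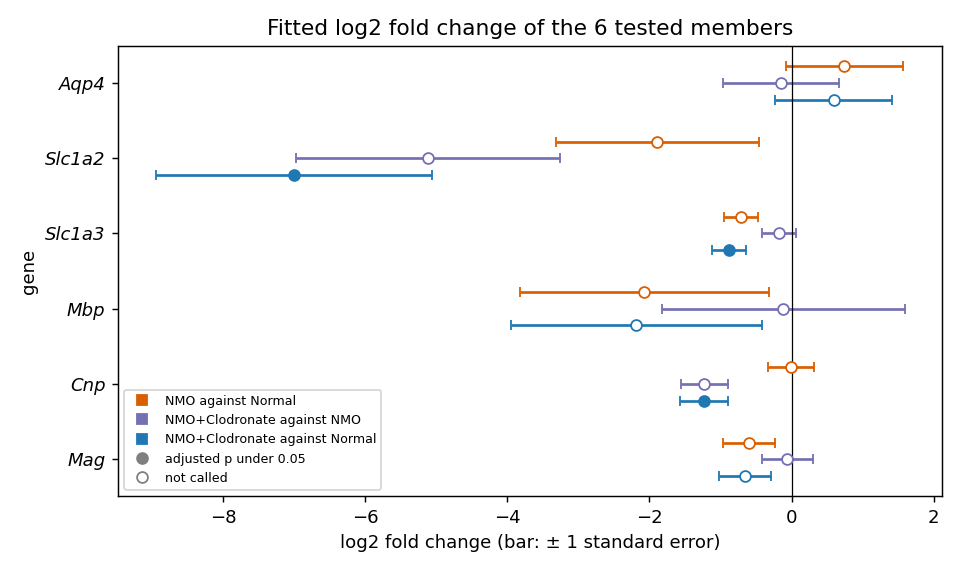
Fitted log2 fold change of the 6 tested members in the 3 comparisons, with bars of ± 1 standard error; filled points had an adjusted p under 0.05. The filled points are Slc1a2 (-7.00), Slc1a3 (-0.88) and Cnp (-1.23) in NMO+Clodronate against Normal, and the bars of Slc1a2 and Mbp are the widest.

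Counted over the 6 tested members, 0 were called in NMO against Normal, where 0.496% of 12292 genes tested were called and 0.0244% were called lower. At an unadjusted p under 0.05 there was 1 (Slc1a3), against 9.51% of all genes, and neither DESeq2 nor limma-voom called a member. In NMO+Clodronate against NMO edgeR also called 0 members, against 1.59% of all genes and 1.07% lower. There, 2 had an unadjusted p under 0.05 (Slc1a2 and Cnp), against 12.4% of all genes, DESeq2 called 1 (Cnp) and limma-voom 0. Slc1a2 passed the filter there only through Normal and NMO libraries in which it was high, and had no value with only the 2 groups compared. In NMO+Clodronate against Normal 3 of the 6 were called, all lower, where 9.23% of all genes were called, 4.43% were called lower and 22.3% had an unadjusted p under 0.05. One of them, Slc1a2, passed the filter only through libraries in which it was high, and with only the 2 groups compared 2 members were called, Slc1a3 and Cnp. These counts are descriptions of the members that passed. Without NMO+Clodronate replicate 2 the count was 0, and without any 1 of the Normal libraries or NMO+Clodronate replicate 1 it was 1: Slc1a3 without Normal replicate 1, Slc1a2 without Normal replicate 2 or NMO+Clodronate replicate 1, and Cnp without Normal replicate 3. The members with lower values and no overlap between the groups numbered 1 in NMO against Normal (8.2% of all genes). They numbered 2 in NMO+Clodronate against NMO (9.22%), Slc1a2 being 1 of them, and 2 in NMO+Clodronate against Normal (14.9%). The median log2 fold changes of the 6 members were -0.65, -0.16 and -1.06 in these comparisons, and those of all genes tested were -0.01, -0.01 and -0.01. Each of these comparisons shares a group of libraries with each of the others. In such bulk libraries fewer cells of a type and less RNA per cell cannot be told apart.

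**Figure D4:**
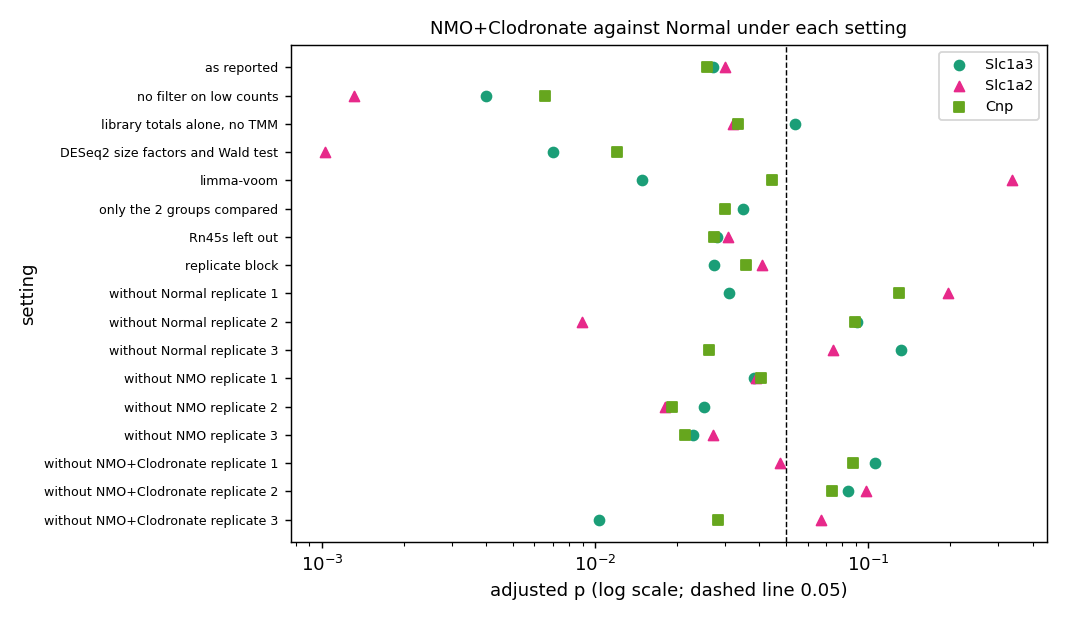
Adjusted p of Slc1a3, Slc1a2 and Cnp in NMO+Clodronate against Normal as reported (top) and under each alternative, on a log axis with the threshold of 0.05 dashed. Leaving out NMO+Clodronate replicate 2 moved all 3 genes above the threshold, and no NMO library did so for any of them.

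The summed level of the 4 astrocyte members was 190 ± 24.1 CPM in Normal, 118 ± 17.9 CPM in NMO and 104 ± 24.8 CPM in NMO+Clodronate, most of it Slc1a3. That of the 5 myelin members was 100.5 ± 22.3, 78.8 ± 15.4 and 51.1 ± 17.0 CPM, most of it Cnp and Mag. The 10 microglial genes summed to 37640 ± 2677, 32330 ± 2921 and 25650 ± 5243 CPM. Of these 10, 4 were called lower in NMO+Clodronate against Normal (P2ry12, Siglech, Aif1 and Cx3cr1), 2 in NMO+Clodronate against NMO (P2ry12 and Siglech) and 1 in NMO against Normal (Siglech). Over all genes tested, 4.43%, 1.07% and 0.0244% were called lower in these comparisons. P2ry12 kept its calls in all 16 alternatives, and so did Siglech in the comparisons with NMO+Clodronate, whereas 7 of 16 lost Cx3cr1, 4 of 16 lost Aif1 and 6 of 16 lost Siglech in NMO against Normal. DESeq2 called 5, 3 and 1 of the list in these comparisons and limma-voom 6, 3 and 1. In the last 2 of these comparisons DESeq2 called 465 and 224 of all genes and limma-voom 183 and 43. The medians of the list were -0.53, -0.35 and -0.14 in the same order. The complement gene C1qa, which microglia express strongly, measured 3683 ± 468 CPM in Normal, 3230 ± 662 in NMO and 3696 ± 1174 in NMO+Clodronate. The part of the microglial difference in the levels of the members was not tested.

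Other astrocyte genes were mostly scarce. Of 19 measured, 11 passed the filter, and 4 had counts in every library. Aldh1l1, a defining astrocyte gene, had 1 count in all 9 libraries together, Slc6a11 had 0 and Ntsr2 had 1. The exception was Glul, which encodes glutamine synthetase, the enzyme that turns glutamate into glutamine, and which measured 1509 ± 407 CPM in Normal, 1183 ± 309 CPM in NMO and 752 ± 59.4 CPM in NMO+Clodronate. Each NMO+Clodronate library was below the 6 others in Glul. By edgeR and limma-voom it was the only gene of this list called, lower in NMO+Clodronate against Normal (log2 fold change -1.005, standard error 0.209, adjusted p = 0.00491), and it kept that call in all 16 alternatives. DESeq2 called 2 there, Glul and the bicarbonate transporter gene Slc4a4, which had 16 to 19 counts in Normal, 16 counts in a single NMO library and 0 in NMO+Clodronate (edgeR adjusted p = 0.129). Slc4a4 passed the filter on low counts only through these Normal and NMO libraries, in which it was high. In NMO against Normal and in NMO+Clodronate against NMO edgeR, DESeq2 and limma-voom called 0 of the 11 tested, with 3 and 5 at an unadjusted p under 0.05, a cut that 9.51%, 12.4% and 22.3% of all genes passed in NMO against Normal, NMO+Clodronate against NMO and NMO+Clodronate against Normal. Glul was not called in NMO+Clodronate against NMO (-0.65, adjusted p = 0.148, called in 1 of 16 alternatives) or in NMO against Normal (-0.35, adjusted p = 0.658). Sparcl1 (27.2 ± 18.2, 12.2 ± 10.2 and 43.5 ± 14.5 CPM) and Clu (7.65 ± 5.63, 2.23 ± 0.663 and 8.94 ± 7.41 CPM) were not called by edgeR in any comparison. Each NMO+Clodronate library was above each NMO library in Sparcl1 (log2 fold change 1.83, adjusted p = 0.230), which was called in 1 of 16 alternatives, without the filter on low counts (0.000564). The median log2 fold changes of the 11 tested genes were -0.99, 0.54 and -0.88 in NMO against Normal, NMO+Clodronate against NMO and NMO+Clodronate against Normal.

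Of 21 other oligodendrocyte and myelin genes, 7 passed the filter and 0 were called in any comparison by edgeR. At an unadjusted p under 0.05 there were 1, 2 and 1 in NMO against Normal, NMO+Clodronate against NMO and NMO+Clodronate against Normal. Of all genes 9.51%, 12.4% and 22.3% passed that cut. DESeq2 called 1 in NMO+Clodronate against NMO (Tspan2) and limma-voom 0. Tspan2 had 0 to 3 counts in NMO and passed the filter only through Normal and NMO+Clodronate libraries in which it was high. Opalin, Olig1, Olig2 and Fa2h had 0 counts in all libraries, and Sox10, the lineage factor of oligodendrocytes, had 1. The abundant exceptions were Trf, which encodes the iron carrier transferrin (643 ± 86.1, 497 ± 75.1 and 648 ± 92.0 CPM), and Qdpr, an enzyme of pterin metabolism (40.8 ± 8.82, 51.3 ± 17.2 and 32.7 ± 4.46 CPM). Enpp2, which choroid plexus also expresses, had 15.3 ± 10.02, 11.4 ± 1.87 and 20.1 ± 6.28 CPM. Median log2 fold changes of the 7 genes were -0.42, 0.38 and 0.01. Of 6 genes of oligodendrocyte precursors 2 were tested. Pdgfra, the receptor for platelet-derived growth factor, had 28 to 48 counts in Normal, 0 to 3 in NMO and 23 to 102 in NMO+Clodronate, and was called higher in NMO+Clodronate than in NMO (adjusted p = 0.0207), although 5 of 16 alternatives lost that call, among them limma-voom and the fits without NMO replicate 1 (0.0855), NMO replicate 2 (0.0517) or NMO+Clodronate replicate 1 (0.0622). Pdgfra passed the filter on low counts only through Normal and NMO+Clodronate libraries, in which it was high. Each NMO library was also below each Normal library in Pdgfra, but with an adjusted p of 0.0587 it was not called there by edgeR, and 3 of 16 alternatives, DESeq2 among them, called it. Vcan (6.06 ± 3.99, 5.02 ± 5.89 and 2.02 ± 1.34 CPM) was not called, and Ptprz1 and Cspg4 had at most 25 and 9 counts per library. The median over the 2 tested genes was -2.63, 2.10 and -0.53.

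**Figure D5:**
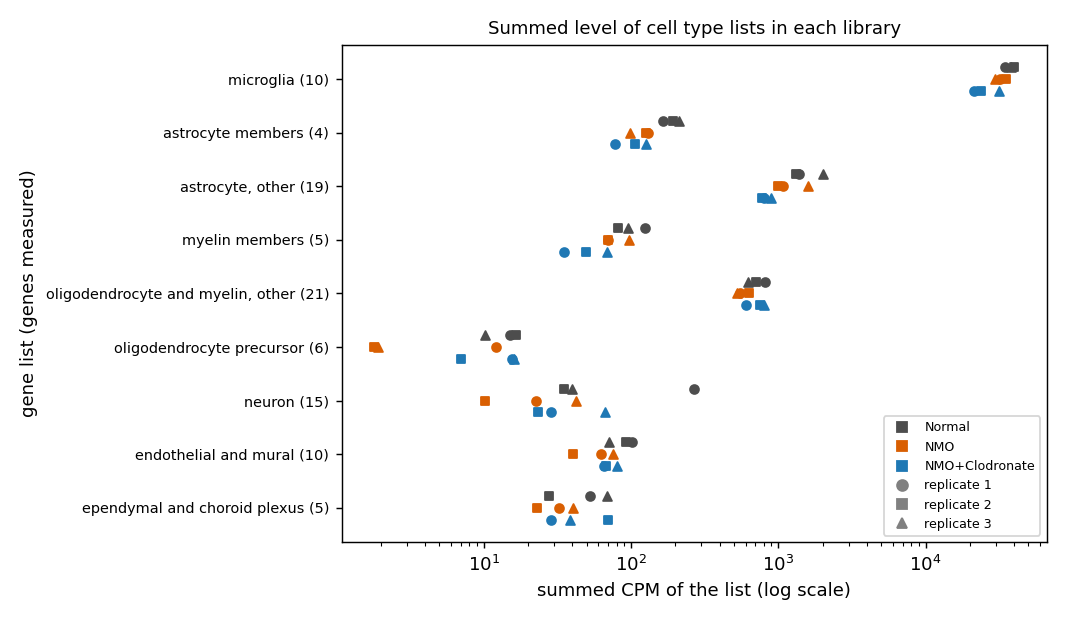
Summed CPM of each gene list in each library, on a log axis, with groups in colour and replicates by shape. Microglial genes summed to 21450 CPM or more in each library, the 4 astrocyte and 5 myelin members to 35.0 to 212 CPM, and Normal replicate 1 stood apart in the neuronal list at 266 CPM.

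Genes that work with aquaporin-4 at the endfoot membrane were examined next. Dag1 (dystroglycan), part of the complex that anchors the channel, overlapped between the groups, at 89.0 ± 7.90 CPM in Normal, 93.2 ± 11.1 in NMO and 109 ± 25.8 in NMO+Clodronate. Kcnj10, the potassium channel Kir4.1 of astrocytes, had 3.58 ± 2.38, 2.95 ± 2.23 and 14.1 ± 3.19 CPM. Each NMO+Clodronate library was above the 6 others in Kcnj10, yet it did not pass the threshold against NMO (log2 fold change 2.25, standard error 0.786, adjusted p = 0.198) or Normal (1.97, 0.777, adjusted p = 0.133). Dtna had 5.04 ± 3.81, 1.45 ± 2.09 and 12.6 ± 8.42 CPM and was called in 2 of 16 alternatives in NMO+Clodronate against NMO. Of the 5 tested genes of this list 0 were called in any comparison by edgeR, DESeq2 or limma-voom, with 0, 2 and 1 at an unadjusted p under 0.05, and the medians were -0.29, 0.73 and 0.29. Of all genes 9.51%, 12.4% and 22.3% passed that unadjusted cut in NMO against Normal, NMO+Clodronate against NMO and NMO+Clodronate against Normal. Among other aquaporins, Aqp1 had 12.9 ± 5.495, 10.3 ± 8.97 and 25.1 ± 4.31 CPM, and Aqp7, Aqp11 and Aqp5 had group means of 0.705 to 3.21 CPM, with 0 of 4 tested genes called by edgeR, DESeq2 or limma-voom, 0 at an unadjusted p under 0.05, and medians of -0.48, 0.20 and -0.13. Of 6 regulators of complement 0 were called in any comparison by edgeR, DESeq2 or limma-voom, with 1 in each at an unadjusted p under 0.05. Cr1l, a membrane regulator, had 73.9 ± 16.9, 69.3 ± 17.2 and 84.6 ± 18.8 CPM, and Cd59a had 1.597 ± 2.147, 1.197 ± 2.073 and 4.77 ± 3.25 CPM. The medians of these 6 were -0.13, 0.175 and 0.21.

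Markers of further cell types were summed beside the members. The 15 neuronal genes summed to 34.9 to 266 CPM in Normal, 10.3 to 42.1 CPM in NMO and 23.5 to 66.3 CPM in NMO+Clodronate. Of the 8 tested, Meg3, a long non-coding RNA, was called lower in NMO against Normal (adjusted p = 0.0493), and without Normal replicate 1 its log2 fold change went from -3.73 to -1.29 (adjusted p = 0.637). Leaving out NMO replicate 1 (0.186), NMO replicate 2 (0.134), NMO replicate 3 (0.0884) or NMO+Clodronate replicate 2 (0.0609) also ended the call. It was not made by limma-voom, and DESeq2 gave no adjusted p for Meg3. Camk2a, Nrgn and Syt1 had group means of 2.87 to 7.62 CPM and were not called. Rbfox3, which encodes the neuronal nuclear protein NeuN, had 6.85 ± 1.82, 1.37 ± 0.827 and 0.749 ± 0.758 CPM, each Normal library above the 6 others. It was not called by edgeR (adjusted p = 0.624 in NMO against Normal and 0.165 in NMO+Clodronate against Normal), and DESeq2 called it in the latter (0.0337). Snap25, a gene of the synaptic release machinery, was below the filter, with 51, 7 and 22 counts in Normal, 1 count in a single NMO library and 0 in the others. The order was not the same for all neuronal genes, as Tubb3 had 0 counts in Normal and NMO and 12, 9 and 7 counts in NMO+Clodronate. DESeq2 called 1 neuronal gene in NMO+Clodronate against NMO (Stmn2, 0.0104), with 6, 47 and 22 counts in NMO+Clodronate, 0 in NMO and 17, 0 and 13 in Normal. Stmn2 passed the filter on low counts only through Normal and NMO+Clodronate libraries in which it was high. The medians of the list were -1.51, 0.25 and -1.15. Gad1 and Penk had counts only in Normal replicate 1, which was also the only library with Mobp. The 10 endothelial and mural genes summed to 71.3 to 101 CPM in Normal, 40.3 to 75.1 CPM in NMO and 65.5 to 81.0 CPM in NMO+Clodronate. Pecam1 (51.0 ± 10.5, 34.0 ± 4.77 and 34.8 ± 6.90 CPM), Acta2, Ly6c1 and Flt1 led that list, the last 3 with group means of 4.56 to 11.96 CPM. By edgeR, DESeq2 or limma-voom 0 of 7 tested genes were called, with 0, 1 and 0 at an unadjusted p under 0.05, and the medians were -1.01, 0.65 and -0.24. Over all genes the shares at that unadjusted cut were 9.51%, 12.4% and 22.3%. The 5 ependymal and choroid plexus genes summed to 23.0 to 70.2 CPM over all libraries, mostly Ttr (30.3 ± 9.94, 20.1 ± 6.44 and 23.4 ± 14.7 CPM) and Enpp2, with Ccdc153 and Foxj1 at group means of at most 1.585 CPM. Of these, 0 of 2 tested genes were called by edgeR, DESeq2 or limma-voom and 0 had an unadjusted p under 0.05, with medians of -0.51, 0.52 and 0.01. Clu and Enpp2 each stand in 2 of these lists. The part of such cells in the levels of the members was not tested.

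Genes with a pattern like that of the leading members were sought among all genes tested, by Pearson's r of log2 CPM over the 9 libraries. These values are descriptions, since the points share library depth and group. Closest to Slc1a3 were Dopey2 (r = 0.979), Mnt (0.977), Rnf166 (0.966), Rnase4 (0.959) and Arhgap12 (0.944). Of these Rnase4 was the most abundant, with means of 949, 661 and 513 CPM in Normal, NMO and NMO+Clodronate. Closest to Cnp were Edem2 (0.973), Med13 (0.959), Pccb (0.951), Ncaph (0.945) and Accs (0.941), with means for Ncaph of 16.2, 16.0 and 2.28 CPM. Among the members, Mag had r = 0.667 with Slc1a3 and 0.339 with Cnp, Slc1a2 had 0.324 and 0.613, Mbp had 0.164 and 0.131, Slc1a3 and Cnp had 0.463, and Aqp4 had -0.457 with Slc1a3 and -0.260 with Cnp.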

How the data were processed

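QuantSeq libraries of the sorted microglia, in which a read marks the 3′ end of a polyadenylated transcript, were sequenced in single-end mode. The authors aligned reads with Bowtie2 and took counts per gene, from unique and multiple alignments, with Bedtools; the build mm10 is named in the submitters' processing notes. The deposited values are raw read counts for 23282 entries per library. The 35 symbols on several entries were summed. Annotation and use of strand are not given in the sources used here. Coordinates and exon overlaps are from GENCODE M21 (GRCm38, the same assembly as mm10), and in the last 500 bases of the members' transcripts no match to another gene of at least 75 bases at 95% identity was found.

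The tests were run in edgeR 4.0.16 under R 4.3.3. After filterByExpr (minimum count 10, minimum total 15) 12292 genes remained, and libraries were scaled by TMM. A quasi-likelihood model with 1 coefficient per group was fitted to all 9 libraries. F-tests were two-sided, and Benjamini-Hochberg adjustment covered all genes tested in a comparison, with a gene called at an adjusted p under 0.05. The biological coefficient of variation common to all genes came to 0.519. For members below the filter an exact permutation test cannot go below p = 0.1 with 3 against 3 libraries. The functions were tested on simulated data.

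Each of the 9 libraries was left out in turn, and 7 other alternatives were run: no filter, library totals without TMM, DESeq2 1.42.0, limma-voom (limma 3.58.1), only the groups compared, Rn45s left out and a replicate block. Replicates of a group differed by more than counting error (chi-square per degree of freedom 21.9 to 51.1). Libraries are stated to be independent pools. The members and gene lists were chosen with earlier results of these data known. Named are all members, the 4 genes of each list with the highest mean, up to 4 called genes per list and the 5 genes most like Slc1a3 and Cnp. Tspan2, Slc4a4, Rbfox3, Snap25, Tubb3, Stmn2, Aldh1l1, Slc6a11, Ntsr2, Opalin, Olig1, Olig2, Fa2h, Sox10, Gad1, Penk and Dnajc7 were named after their values were seen. Some genes that this rule names are not reported here. Floors and intervals cover counting error only, since molecular identifiers are not mentioned.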

Additional observations from a re-analysis of the deposited data

How the results depend on the processing

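Of all genes tested in NMO against Normal 61 were called, and 223 without the filter on low counts, 224 with DESeq2, 96 with library totals alone and 34 with only the groups compared in the fit. Leaving out 1 library gave 20 to 75. In NMO+Clodronate against NMO 196 were called, and 496 without the filter, 465 with DESeq2 and 73 with only the groups compared, with 51 to 231 when 1 library was left out. In NMO+Clodronate against Normal 1134 were called, with 649 to 1263 when 1 library was left out. Of the members, 1 (Cnp) was called in NMO+Clodronate against NMO without the filter and 1 with DESeq2. In NMO+Clodronate against Normal 0 to 3 were called when 1 library was left out. In each case the cause was not tested.

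Only changes that were not called turned sign. Cnp in NMO against Normal (-0.01 as log2 fold change) was 0.001 without the filter, 0.11 with library totals alone and -0.26 to 0.19 with 1 library left out. In NMO+Clodronate against NMO, Aqp4 was 0.079 and Mbp 0.519 with the replicate block. With 1 library left out, Aqp4 ran from -0.43 to 0.68, Mbp from -2.74 to 1.16, Mag from -0.49 to 0.16, Slc1a3 from -0.394 to 0.028, and the difference in mean CPM of Mog from -0.0399 to 0.0540. In NMO against Normal, Aqp4 ran from -0.09 to 2.06 and Mbp from -3.34 to 1.08, and in NMO+Clodronate against Normal Mbp ran from -4.81 to 0.98. The ratios of summed levels of the astrocyte and of the myelin members moved by less than the spread between replicates in every alternative run.

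Same-numbered libraries of different groups had correlations of their deviations of -0.0148 to 0.0302, so the replicate numbers were not treated as pairs. Replicates are numbered as in the sample titles. The names of the deposited tables carry numbers that are higher by 1 in each group, which leaves the same libraries together. With the replicate block 53, 197 and 1124 genes were called in the 3 comparisons, and the members called were 0, 0 and 3. Members under about 3 counts cannot be compared between groups at this depth.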
